A study of Mus musculus with 101 samples.

Results

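The distal part of mouse chromosome 11 was followed in copy-number profiles of mammary tumours, as the 373 genes of the deposited segment table that the GRCm38.p6 annotation places from Efcab3, at chr11:105008985-105117537, to the end of the chromosome, where Gm12586 is the last. They are 373 of 43513 gene symbols in the table and 373 of 487 annotated genes in that stretch of 16.9 Mb, and 266 of them are protein coding. The stretch was selected on the segment values and gain calls of these same tumours, in which earlier results had shown gains there, so levels and frequencies by genotype are a description with no test. Genomic DNA of 98 tumours and 3 spleens had been sequenced at low coverage. The tumours were 18 KP, 24 KB1(L1363P)P, 31 KB1P and 25 KB2P. The spleens are titled KP, KB1P and L1363P, and none is titled KB2P. In the usual naming of these conditional models, a keratin promoter drives Cre in epithelial cells and Cre deletes floxed Trp53 in all 4 genotypes. KB1P adds floxed Brca1, KB2P adds floxed Brca2, and KB1(L1363P)P carries the Brca1 variant L1363P, a missense change of the coiled coil through which Brca1 binds Palb2. The labels give no age, and since they do not tie tumours to animals and some titles share a number, p-values measure only the spread between samples, which may in part be technical. By histology, KB1(L1363P)P held 12 sarcomatoid tumours, 9 carcinosarcomas and 3 adenocarcinomas. The KP tumours were 10 sarcomatoid, 2 carcinosarcoma and 6 adenocarcinoma, KB1P held 29 adenocarcinomas with 1 of each other class, and KB2P held 25 adenocarcinomas. Titles name 10 of the KB1P tumours KB1PM, and KB1P replicate 8 carries the L1363P name in its description. Both kept their genotype label.

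Distal mouse chromosome 11 corresponds to the end of the long arm of human chromosome 17, a stretch that is often gained in breast cancer. Tumours that lack Brca1 or Brca2 cannot repair double-strand breaks by homologous recombination, and their genomes typically carry many gains and losses of chromosome arms. Brca1 and Trp53 both lie on chromosome 11 before the distal genes, so a change in copy number there can meet the engineered loci.

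Sequences were read from RefSeq tables of build GRCm38.p6 for genes at the peaks of gain described below. The first set is the 250 bases before a start that the table lists for Birc5, Fasn, Rptor and Grb2, which stand for the highest mean and the highest frequency in KB1P, the peak of KB2P and the peak of KP. Capitals mark 3 motifs searched on both strands, the GC box (GGGCGG), the CCAAT box (CCAAT) and the TATA box (TATAAA), with overlapping matches joined.
Birc5, chr11:117848987-117849236, plus strand: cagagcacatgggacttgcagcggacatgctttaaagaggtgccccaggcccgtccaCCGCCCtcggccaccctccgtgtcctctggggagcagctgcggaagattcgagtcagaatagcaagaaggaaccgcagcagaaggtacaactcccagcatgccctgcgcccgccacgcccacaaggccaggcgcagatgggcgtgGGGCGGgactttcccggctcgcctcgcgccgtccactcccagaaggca
Fasn, chr11:120824548-120824797, minus strand: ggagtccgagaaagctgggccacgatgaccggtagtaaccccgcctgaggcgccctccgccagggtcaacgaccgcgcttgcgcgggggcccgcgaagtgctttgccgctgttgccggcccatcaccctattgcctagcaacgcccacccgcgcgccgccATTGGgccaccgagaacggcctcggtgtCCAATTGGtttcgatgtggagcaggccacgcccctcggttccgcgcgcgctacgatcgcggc
Rptor, chr11:119602655-119602904, plus strand: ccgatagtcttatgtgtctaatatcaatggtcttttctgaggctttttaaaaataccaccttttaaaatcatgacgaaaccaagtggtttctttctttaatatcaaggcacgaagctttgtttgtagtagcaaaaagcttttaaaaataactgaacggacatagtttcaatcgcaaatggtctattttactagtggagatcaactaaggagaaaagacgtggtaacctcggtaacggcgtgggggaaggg
Grb2, chr11:115699929-115700178, minus strand: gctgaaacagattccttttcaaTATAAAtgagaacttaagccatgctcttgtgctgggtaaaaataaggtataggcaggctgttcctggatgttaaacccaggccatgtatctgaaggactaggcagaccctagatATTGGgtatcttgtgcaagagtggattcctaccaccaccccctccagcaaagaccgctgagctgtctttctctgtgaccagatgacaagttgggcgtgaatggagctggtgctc
Birc5 held 2 GC boxes, Fasn held 3 CCAAT boxes, Grb2 held 1 CCAAT box and 1 TATA box, and Rptor held none of these letters in this window. Among all 32851 windows of 250 bases in the table, 32.7% held a GC box, 33.8% a CCAAT box and 12.4% a TATA box. Fasn and Grb2 lie on the minus strand and their annotated spans end at 120825166 and 115708597, so the windows shown for these genes lie inside the gene, before an internal listed start. Grb2 has 2 listed starts and the first is shown.

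The second set is the mature miRNAs of 3 of the miRNA genes that lie at or within peaks. Mir6932 begins the stretch gained most often in KB1(L1363P)P, Mir6933 lies in the run with the highest KB1P mean and Mir6934 in the KB2P peak. Mir3968 and Mir5621 in the KP peak and Mir1932 in the KB2P peak are named only. Capitals mark the seed, bases 2 to 8.
mmu-miR-6932-5p: uUGUAGGUgaaguagacuuggc
mmu-miR-6932-3p: uCUGUUCUgcuuccucugcag
mmu-miR-6933-5p: uGGCGGCAgucaggauaccugu
mmu-miR-6933-3p: aGGUGUUUccucugccguca
mmu-miR-6934-5p: uUGGUGGAgacagcaagggugg
mmu-miR-6934-3p: aCCUCUGCuccugccccaccag
The 14 miRNA genes among the distal genes have 24 mature sequences in the table, and no seed occurred in more than 1 of them.

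A gain was counted where the deposited copy call was at least 3, which by rounding needs a segment value of at least 0.32 on the log2 scale. In bulk tumour DNA, fewer cells with a gain and fewer extra copies per cell cannot be told apart. The 3 spleens stayed within 0.00266 of 0 at every distal gene. Gains were most frequent in KB1P, where 20 of 31 tumours had at least 1 gained distal gene and 12 had all 373 gained. In KB2P, 10 of 25 tumours had a gained distal gene and 5 had all of them gained. KP had 3 of 18 such tumours and KB1(L1363P)P 2 of 24, with all genes gained in 0 and 1 of them. The mean segment value of the distal genes was 0.31 ± 0.31 in KB1P (SD, n = 31), 0.11 ± 0.22 in KB2P (n = 25), 0.07 ± 0.20 in KP (n = 18) and 0.06 ± 0.18 in KB1(L1363P)P (n = 24). Tumours of every genotype overlapped: KB1P ran from -0.10 to 1.24 with a median of 0.28, KB2P from -0.25 to 0.56 with a median of 0.02, KP from -0.12 to 0.76 and KB1(L1363P)P from -0.45 to 0.48. Losses also occurred. At least 1 distal gene was lost in 4 KB1P, 5 KB2P, 1 KP and 1 KB1(L1363P)P tumours, and no distal gene fell to a segment value of -1 in any tumour.

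**Figure D1:**
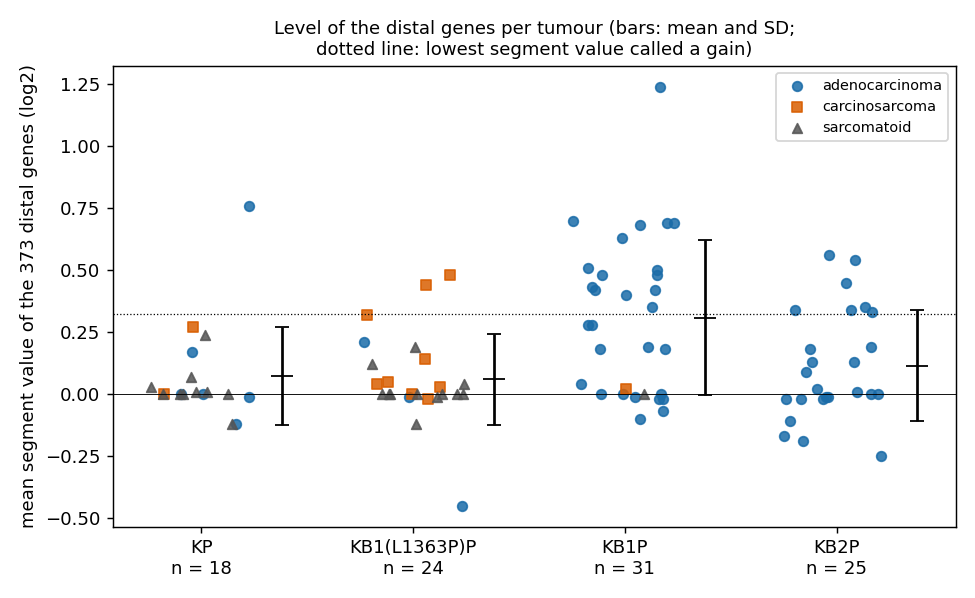
Mean segment value of the 373 distal genes (log2, vertical axis) in each of the 98 tumours by genotype, with histology as symbol, and genotype mean and SD as bars. KB1P tumours reach 1.24 and lie above the dotted line more often than other genotypes, while sarcomatoid tumours lie between -0.12 and 0.24.

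Histology and genotype went together, and all gains fell in adenocarcinomas except those of KB1(L1363P)P. Among adenocarcinomas alone, 20 of 29 KB1P, 10 of 25 KB2P, 3 of 6 KP and 0 of 3 KB1(L1363P)P tumours had a gained distal gene. The 2 gained KB1(L1363P)P tumours, replicates 15 and 24, were both carcinosarcomas, with means of 0.44 and 0.48, among 9 carcinosarcomas. None of the 10 KP sarcomatoid and 12 KB1(L1363P)P sarcomatoid tumours had a gained distal gene. These tumours had few changes elsewhere too. Placed genes off chromosome 11 with a copy call other than 2 made up 0.0954% to 6.38% in KP and 0.0888% to 10.1% in KB1(L1363P)P sarcomatoid tumours. The range was 5.13% to 28.8% in KP, 10.3% to 64.2% in KB1P and 16.2% to 59.9% in KB2P adenocarcinomas. The lack of gain is therefore not particular to the distal genes. Per gene, sarcomatoid tumours minus carcinosarcomas of KB1(L1363P)P gave a median difference in segment value of -0.15 over the distal genes, with a range of -0.18 to -0.10, and of 0.03 over all genes. Sarcomatoid tumours minus adenocarcinomas of KP gave -0.05 over the distal genes, from -0.53 to 0.19, and 0.04 over all genes. Without KP replicate 4 the KP median over the distal genes was 0.01. These differences are a description with no test, since the same values chose the stretch. All 10 KP sarcomatoid tumours came from 1 library series, so series and histology cannot be told apart in KP.

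Library series, the number that opens a library's name in the labels, also moved with the level. In KB1P, 5 of 10 tumours of series 5289 had a gained distal gene and 15 of 21 tumours outside it did, with means of 0.16 ± 0.19 and 0.38 ± 0.34 (SD). Within that series 1 of 20 KB1(L1363P)P and 0 of 3 KP tumours had one. The 10 tumours titled KB1PM had a mean of 0.46 ± 0.38 and 8 gained, against 0.24 ± 0.25 and 12 gained among the 21 titled KB1P. The part of series or title in the genotype difference was not tested. KB2P replicates 10 and 12, from different library series, had near-identical segments over the autosomes (r = 0.985), while their residual noise correlated at 0.406, near the median of 0.373 over KB2P pairs. Both carried a gain of the whole chromosome, and without replicate 12 there were 9 gained KB2P tumours of 24.

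Gain frequency rose towards the end of the chromosome in KB1P. At Efcab3, the first distal gene, 13 of 31 KB1P tumours were gained, as at Gm11621 just before it. The fewest gains, 12 of 31, were at the 21 genes from 1700096J18Rik to Gm11682, 109.3 to 110.5 Mb. The most, 19 of 31 or 61.3%, were at the 14 genes from Hmga1b to Sectm1a, 120.8 to 121.1 Mb. That run holds Fasn, the synthase of long-chain fatty acids, Slc16a3, a lactate exporter, and Csnk1d, a kinase of the circadian clock. Over all genes of the table, 0.25% were gained in at least 19 KB1P tumours. The highest mean, 0.38, was at the 12 genes from Syngr2 to Cyth1, 117.8 to 118.2 Mb, which hold Birc5, an inhibitor of apoptosis also called survivin, Tk1, the thymidine kinase of the salvage pathway, and Socs3, a brake on cytokine signalling. All 373 distal genes were gained in at least 25% of KB1P tumours, beside 24.7% of all genes.

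The segment value of Fasn in KB1P ran from -0.17 to 1.45 with a median of 0.42, and that of Birc5 from -0.11 to 1.45 with a median of 0.42. In KB2P, Fasn ran from -0.78 to 0.78 with a median of 0.05 and Birc5 from -0.59 to 0.62 with a median of 0.05. In KP, both genes ran from -0.19 to 0.27 with a median of 0. In KB1(L1363P)P, both ran from -0.63 to 0.52 with a median of 0. Both genes thus overlapped between all genotypes, and neither was gained in any KP tumour.

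**Figure D2:**
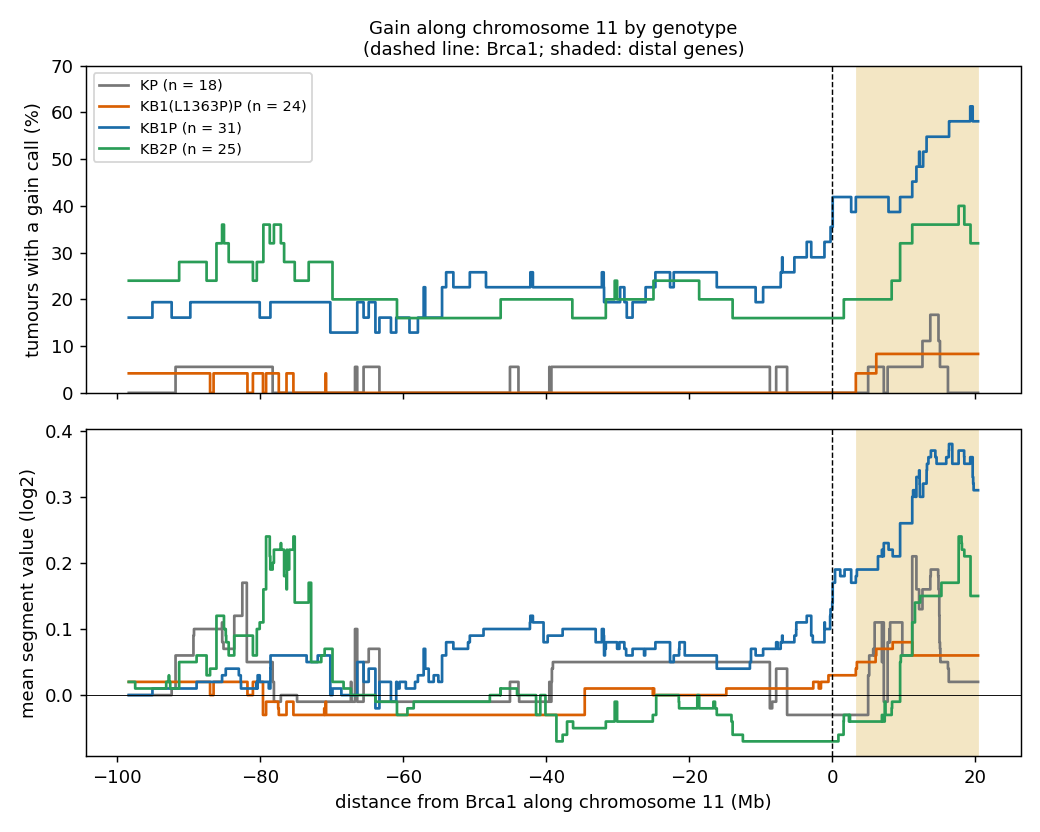
Percent of tumours with a gain call (top) and mean segment value (bottom, log2) at each placed gene, by genotype, against distance from Brca1 in Mb. The KB1P line rises to 61.3% within the shaded distal genes, KB2P to 40%, KP to 16.7% and KB1(L1363P)P to 8.33%.

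KB2P gains were fewest, 5 of 25, at the 90 genes from Efcab3 to Fam20a, which end at 109.7 Mb, and most frequent, 10 of 25, at the 19 genes from Tbc1d16 to Gm11767, 119.1 to 119.9 Mb. The peak holds Rptor, the scaffold of the mTORC1 kinase complex, Rnf213, a large ubiquitin ligase, and Endov, an endonuclease for deaminated bases. Of all genes, 8.65% were gained in at least 10 KB2P tumours. Rptor ran from -0.17 to 0.78 in KB2P with a median of 0.19. In KB1P, where it was gained in 18 of 31 tumours, it ran from -0.11 to 1.45 with a median of 0.40. At least 25% of KB2P tumours were gained at 273 of the 373 distal genes, beside 20.6% of all genes.

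In KP, the 3 gained tumours, replicates 4, 7 and 8, shared the 59 genes from Tmem104 to Exoc7, 115.2 to 116.3 Mb. These hold Grb2, the adaptor that links receptor tyrosine kinases to Ras, Itgb4, an integrin of hemidesmosomes, Sumo2, a protein modifier, and Recql5, a DNA helicase. Of all genes, 1.17% were gained in at least 3 KP tumours. Grb2 ran from -0.12 to 1.81 in KP with a median of 0.01. The 3 gains had different extents: from Tex2 at 106.5 to 117.6 Mb in replicate 4, from 114.1 to 116.5 Mb in replicate 7, and from 115.2 to 116.3 Mb in replicate 8. Replicate 7 had lost the genes before its gain, with a segment value of -0.85 at the Brca1 flank. In KB1(L1363P)P, 2 of 24 tumours were gained from Mir6932 at 107.6 Mb to the end of the chromosome, a stretch of 311 genes, beside 9.44% of all genes gained in at least 2 tumours. No distal gene reached 25% in KP or KB1(L1363P)P, beside 0.188% and 0.216% of all genes.

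Amplitude was low in most gained tumours. The highest segment value per gained tumour had a median of 0.55 in KB1P, 0.50 in KB2P, 0.66 in KP and 0.50 in KB1(L1363P)P. Segment values of at least 1 occurred in 4 tumours. KP replicate 4 had the highest, 3.31 with a copy call of 20, at the 5 genes from BC006965 to 4732490B19Rik, 112.7 to 113.2 Mb, of which Sox9, a transcription factor of progenitor cells, is the only protein-coding one. Around it lay plateaus of 2.33 from Wipi1 to Kcnj2 and 1.81 from Sstr2 to Ubald2, and the level fell to 0.05 at the 5 genes from Olfr1397-ps1 to Gm11658, which hold Axin2, a target and brake of Wnt signalling. The log2 ratios before segmentation averaged 3.37 at the Sox9 run and 0.22 at the Axin2 run. From Pecam1 to Gm11718 the segment value was 1.29 and the log2 ratio averaged 0.90 at the same genes. Of the other 17 KP tumours none was gained at Sox9, and its KP median was 0.

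KB1P replicate 23 was at or above 1 at 300 genes, from 108.7 Mb to the end, with a highest value of 1.45 and a copy call of 5. KB1P replicate 29 was at or above 1 in 3 runs, from Dnai2 to Smim5, Tnrc6c to Cyth1 and Tbc1d16 to Rptoros, and reached 1.35. KB2P replicate 5 reached 1.02 at the 13 genes from Mir6934 to Nptx1, 119.2 to 119.5 Mb, between losses: 226 of its distal genes were lost and 72 gained.

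Genes were then read by role, from lists chosen with these results known. Of 16 genes of growth-factor, kinase and adaptor signalling, gain counts in KB1P ran from 12 to 19 of 31 with a median of 16.5, and in KB2P from 5 to 10 of 25 with a median of 8.5, against medians of 17 and 9 over all distal genes and 5 and 4 over all genes of the table. The spread followed position: Map3k3, a MAP kinase kinase kinase, and Strada, a partner of the kinase Lkb1, lie near 106 Mb and had KB1P means of 0.19, while Rptor and Grb2 had 0.37. Prkca, a protein kinase C, had 0.21, and Map2k6, an activator of p38, also had 0.21. Of 6 Wnt, stem cell and lineage genes, counts ran from 13 to 19 in KB1P and 5 to 9 in KB2P. Sox9 was gained in 14 of 31 KB1P and 9 of 25 KB2P tumours, and Axin2 in 13 and 5.

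Of 7 measured genes of cell division and survival, all were gained in 15 to 18 KB1P and 8 or 9 KB2P tumours. Actg1, a cytoskeletal actin, had means of 0.35 in KB1P and 0.21 in KB2P. The 13 chromatin and RNA genes ran from 13 to 18 in KB1P. The Polycomb genes Cbx2 and Cbx8 share a segment level of 0.35 ± 0.35 in KB1P (SD, n = 31) and 0.17 ± 0.30 in KB2P (n = 25), whereas Bptf, of the NURF remodelling complex, and Ddx5, an RNA helicase, both had means of 0.19 in KB1P and -0.04 in KB2P. Of 7 repair and ubiquitin genes, counts ran from 13 to 18 in KB1P, with Usp36, a deubiquitinase, at a mean of 0.35. Of 9 metabolic and secreted genes, Pycr1, of proline synthesis, and P4hb, a prolyl hydroxylase subunit, both had 0.35 in KB1P and 0.21 in KB2P. In KP and KB1(L1363P)P the medians of every list were at most 1 and 2 gained tumours. The list medians ran from 15.5 to 18 in KB1P and from 8.5 to 9 in KB2P. Neighbouring genes share segments, so these counts are not independent.

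Gain reached back to Brca1 in some tumours only. Brca1 lies at chr11:101488761-101551955, and its flank was taken as the 5 placed genes on each side, Rpl27 to Gm11625 and Nbr1 to Arl4d. An unbroken gain that held a distal gene also held all 10 flank genes in 10 of the 20 gained KB1P tumours and 4 of the 10 gained KB2P tumours, and in 0 of the 3 gained KP and 0 of the 2 gained KB1(L1363P)P tumours. In 2 of those KB1P and 3 of those KB2P tumours the gain covered every placed gene of the chromosome. The flanks of the 4 KB2P tumours, replicates 10, 12, 24 and 25, stood at 0.33 to 0.35, just above the call level of 0.32. KB1(L1363P)P replicate 22 stood at 0.319 from 98.86 Mb through Brca1 to the end and was not called. With gain from a segment value of 0.2, the flank was reached in 13 KB1P, 4 KB2P, 2 KP and 2 KB1(L1363P)P tumours. The counts thus depend on the call level. KB1P replicate 18 had a gained flank and gained distal genes with a break between 104.1 and 104.8 Mb. In 2 more KB1P tumours, replicates 10 and 31, the gain began at Nbr1, the gene next to Brca1. The remaining gained tumours began their gain beyond the flank. In KB1P these starts ran from Kcnj16 at 111.0 Mb to Hmga1b at 120.8 Mb, and in KB2P from Acbd4 at 103.1 Mb to Tbc1d16 at 119.1 Mb. KB1P replicate 22 was the reverse case, gained from 97.92 to 109.3 Mb and not beyond.

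**Figure D3:**
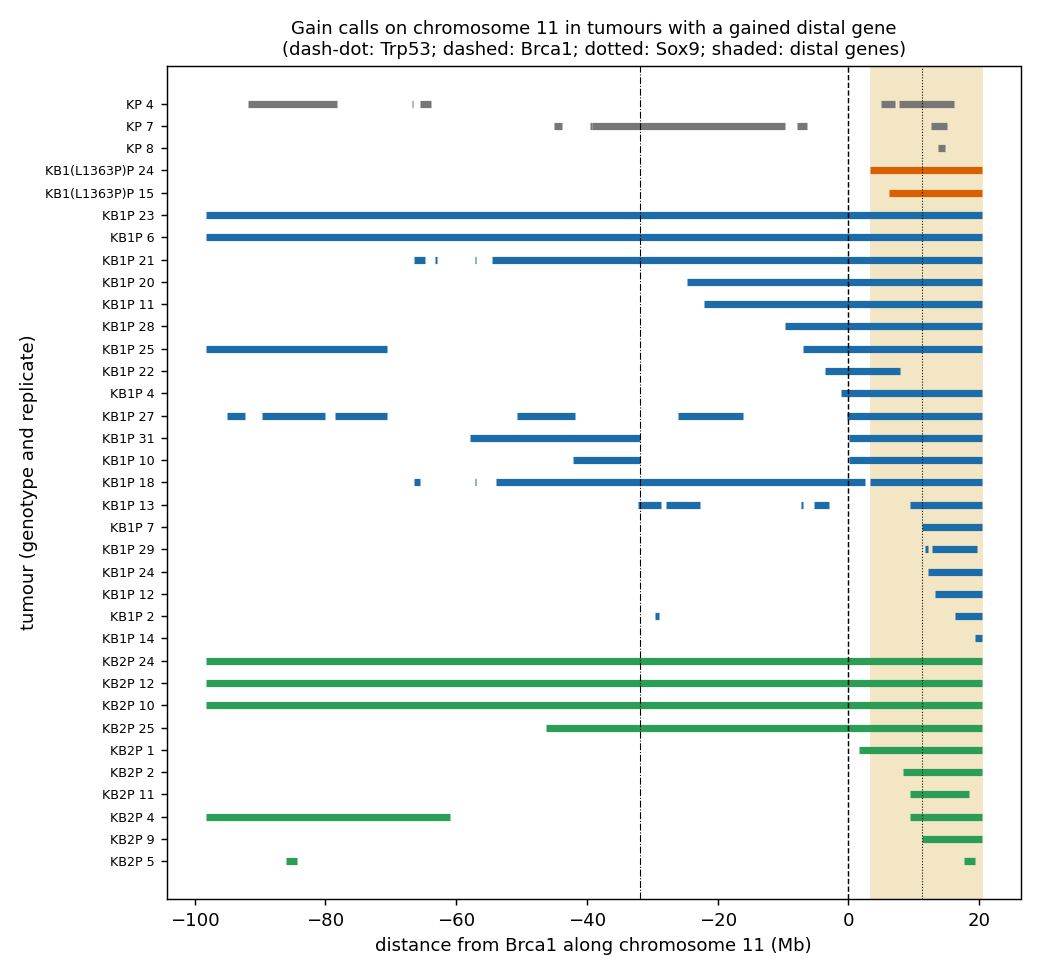
Gain calls along chromosome 11 (bars, distance from Brca1 in Mb on the horizontal axis) in each of the 35 tumours with a gained distal gene, coloured by genotype. Bars cross the dashed line at Brca1 in 11 KB1P and 4 KB2P tumours and in no KP or KB1(L1363P)P tumour.

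The step from the Brca1 flank to the distal genes was measured as the mean distal minus the mean flank segment value and is given with no test, since the stretch was selected on the same values. The step was 0.16 ± 0.29 in KB1P (SD, n = 31), 0.18 ± 0.32 in KB2P (n = 25), 0.10 ± 0.27 in KP (n = 18) and 0.03 ± 0.17 in KB1(L1363P)P (n = 24). It was at least 0.2 in 9 KB1P, 8 KB2P, 2 KP and 2 KB1(L1363P)P tumours. A step also arises where the flank is lost. KB2P replicates 13 and 19 had steps of 0.67 and 0.57 with flanks of -0.78 and -0.77 and no gained distal gene. KP replicate 7 had 0.73 with a flank of -0.85 and a distal mean of -0.12. In others, such as KB2P replicate 4 with a step of 0.54, the flank stood at 0. The step therefore does not measure distal gain alone. Tumours of all 4 genotypes overlapped. Among adenocarcinomas only, KP had the largest step of the 4 genotypes, 0.30 ± 0.42 (SD, n = 6). That mean rested on KP replicates 4 and 7, at 0.94 and 0.73, while the other KP adenocarcinomas were at most 0.13. Among adenocarcinomas, KB1P minus KP turned from 0.06 to -0.13 and KB2P minus KP from 0.08 to -0.12.

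In 2 tumours, and no others of the 98, the segment level changed by at least 0.1 across Brca1 itself, measured as the mean of the 5 genes after minus the mean of the 5 before. KB1P replicate 10 went from -0.04 before Brca1 to 0.42 after it, and KB1P replicate 31 from -0.02 to 0.69. The same 2 tumours were also the only ones of the 98 that changed by at least 0.1 across Trp53, where replicate 10 went from 0.24 to -0.04 and replicate 31 from 0.37 to -0.45. In both, the genes between Trp53 and Brca1 therefore lay lower than the genes just outside. A change of at least 0.2 was seen in at least 2 tumours at 25.3% of placed autosomal genes, so a count of 2 at either gene alone is common. That share is per gene and does not measure how often the same 2 tumours change at 2 given genes. Both are KB1P adenocarcinomas, replicate 31 is titled KB1PM, and the cause of the shared edges was not tested.

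**Figure D4:**
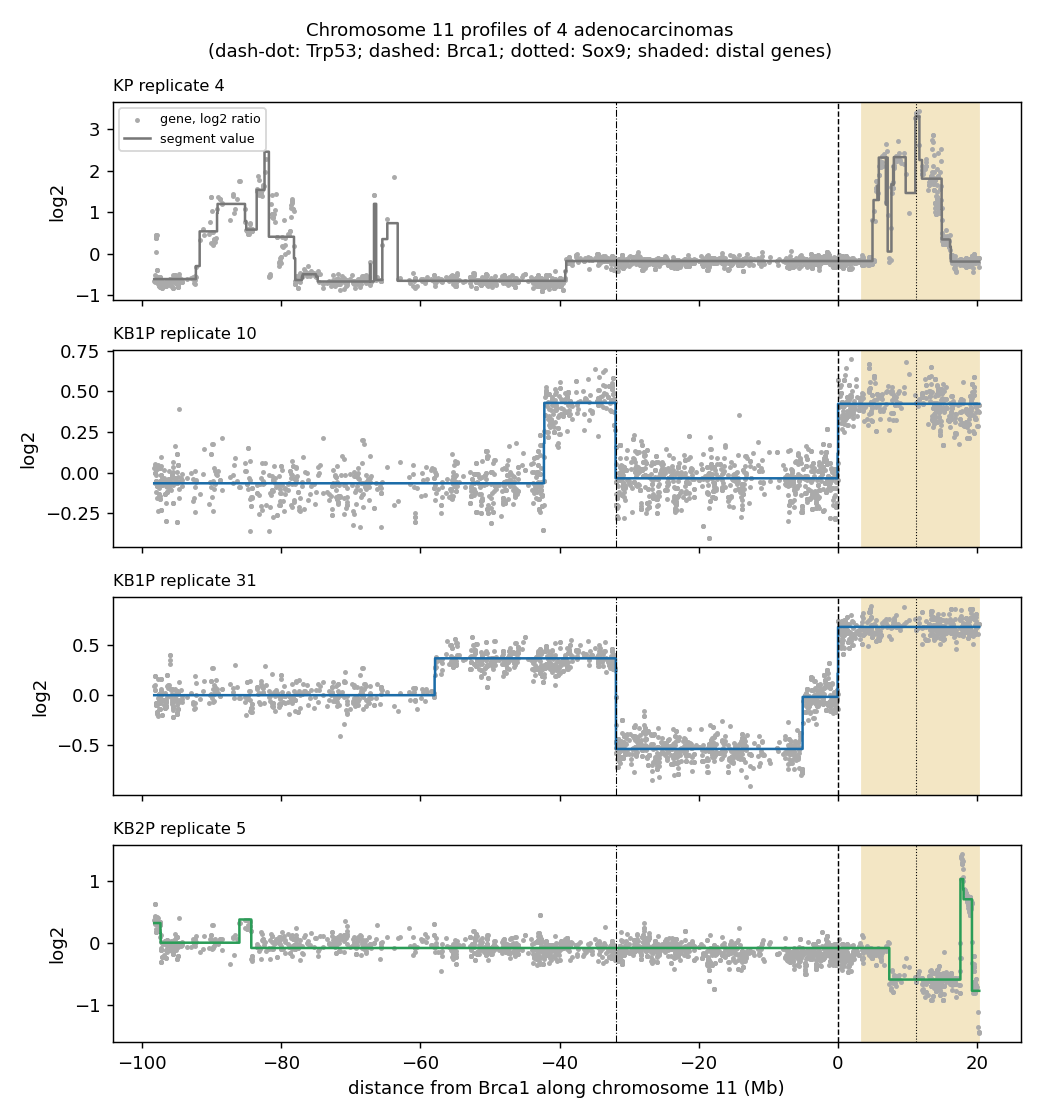
Log2 ratios of placed genes (points) and segment values (lines) along chromosome 11, against distance from Brca1 in Mb, in 4 adenocarcinomas. KP replicate 4 peaks at 3.31 in a run of genes that holds Sox9. KB1P replicates 10 and 31 rise at Brca1 to 0.42 and 0.69 and drop at Trp53, and KB2P replicate 5 has a short peak of 1.02.

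Steps of at least 0.2 between neighbouring segments were counted within 2 Mb of each placed gene. Near Brca1 they occurred in 7 KB1P, 2 KB2P, 2 KB1(L1363P)P and 0 KP tumours. Of all placed autosomal genes, 5.67% had at least 7 such KB1P tumours, 65.9% at least 2 such KB2P tumours and 8.9% at least 2 such KB1(L1363P)P tumours, and 10.8% had at least the 11 tumours of all genotypes. Near Sox9, 17 of the 98 tumours had a step, the most for any distal gene, beside 2.82% of autosomal genes with at least 17. They were 7 KB1P, 6 KB2P, 2 KP and 2 KB1(L1363P)P tumours, counts reached at 5.67%, 8.36%, 4.96% and 8.9% of autosomal genes. Placed genes are sparse there: between Kcnj2 at 111.1 Mb and BC006965 at 112.7 Mb, 1.59 Mb hold 2 placed genes, and 9 tumours had a step in that gap, of which 8 went up.

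The segment value of Brca1 differed from its flank by a mean of -0.01 ± 0.02 in KB1P and 0 in the other genotypes. No pair of genotypes passed the threshold (permutation tests, lowest adjusted p = 0.79). Genes within 1 segment share its value, so this test could hardly find a difference and decides nothing about Brca1 itself. The log2 ratio of Brca1 before segmentation lay below its flank in 31 of 31 KB1P tumours, by a mean of -0.13 ± 0.08 (SD). It was -0.07 ± 0.05 in KB1(L1363P)P, with 21 of 24 tumours below 0, -0.05 ± 0.03 in KP, 0.00 ± 0.06 in KB2P and -0.02 ± 0.04 in the spleens. KB1P was lower than KB2P by a difference of -0.12 (permutation, adjusted p = 3.00e-05, from p = 1.00e-05, the smallest these permutations can give), and lower than KP by -0.07 (adjusted p = 9.40e-04). Within series 5289, KB1P minus KP was -0.04 (n = 10 and 3, exact permutation p = 0.406, adjusted p = 0.608), so that call was not kept there. In the same series, KB1(L1363P)P minus KB1P was 0.03 (p = 0.121, adjusted p = 0.364), against 0.05 over all tumours (adjusted p = 0.0071). KB2P libraries share no series with the other genotypes, so series and genotype cannot be told apart there. The 31 KB1P tumours with a lower log2 ratio include the 10 whose gain spans the whole flank.

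The distal level was set against 2 other measures in each genotype, 8 relations in all. It is made of values on which the stretch was selected, so these p-values concern relations between tumours only and are no support for the gain. Where chromosome 11 has 1 level throughout, the distal level equals the level before Brca1 by construction. With the mean level of chromosome 11 before Brca1, r was 0.38 in KB1P (rho = 0.44, n = 31, permutation p = 0.038 and 0.0142, adjusted p = 0.142 and 0.114), and 0.20 without the 2 tumours farthest from the median distal level. In KB2P it was 0.37 (rho = 0.38, n = 25, p = 0.0708 and 0.0617, adjusted p = 0.142 and 0.123), and 0.47 without the 2 farthest. In KP it was -0.24 (rho = 0.47, n = 18, permutation p = 0.255 and 0.053, adjusted p = 0.291 and 0.123), and 0.74 without the 2 farthest. Without KP replicate 4 alone it was 0.84 (adjusted p = 0.00336), so the KP value rested on that tumour. Most of the other KP tumours had 1 level throughout chromosome 11, so much of the 0.84 is built in. In KB1(L1363P)P r was -0.14 (rho = 0.18, n = 24, p = 0.482 and 0.385, adjusted p = 0.482 and 0.513), and -0.19 without the 2 farthest. Within library series of at least 6 tumours, r was 0.52 in KB1P series 2766 (n = 8, exact p = 0.191), -0.16 in KB1P series 5289 (n = 10, p = 0.655), 0.30 in the unnumbered KB1P libraries (n = 11), 0.35 in KB2P series 3196 (n = 20) and -0.30 in KB1(L1363P)P series 5289 (n = 20). In the KP sarcomatoid series it was 1, since chromosome 11 had 1 level throughout in each of those 10 tumours.

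With the percent of placed genes off chromosome 11 whose copy call was not 2, r was 0.34 in KB1P (rho = 0.36, permutation p = 0.0576 and 0.0489, adjusted p = 0.142 and 0.123) and 0.28 in KB2P (rho = 0.32, p = 0.18 and 0.122, adjusted p = 0.24 and 0.195). It was 0.49 in KP (rho = 0.01, p = 0.0395 and 0.973, adjusted p = 0.142 and 0.973) and -0.35 in KB1(L1363P)P (rho = 0.03, p = 0.107 and 0.884, adjusted p = 0.171 and 0.973). Without the 2 farthest tumours r was 0.39, 0.37, -0.27 and 0.39 in the same order, so the sign turned in KP and KB1(L1363P)P. Within series it was 0.21, 0.47 and 0.34 in the 3 KB1P series, 0.18 in KB2P series 3196 and -0.44 in KB1(L1363P)P series 5289. No relation passed an adjusted p of 0.05.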

How the data were processed

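Genomic DNA libraries of 98 tumours and 3 spleens were analysed from 3 deposited tables. Per the labels' protocols, the authors counted reads in bins of 20 kb and corrected them for GC content and mappability. The submitters' processing notes list build mm10, cutadapt 2.5, BWA 0.7.17, SAMtools 1.10 and Picard, while the protocol text names a human build. The deposited log2 ratios and the log2 segment values made from them were used as the authors gave them. The deposited copy score matched the segment value turned into copies, with 0 standing for 2 copies, and rounded, in 99.9919% of values. How segments were made, what the ratios were set against and how bins became genes is not given in the sources used here. Depth per sample is unknown. The scatter of log2 ratios around segments at the distal genes was 0.0695 to 0.172 in tumours and 0.0397 to 0.0498 in spleens.

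GRCm38.p6 positions placed 32688 of 43513 symbols, 31 of them by an older symbol, and 2294 on chromosome 11. The other 10825 entered only values over all genes of the table. The distal genes, the gene lists, the naming rule and the tests were chosen with earlier results of these data known. The text names listed genes, boundary genes, genes at genotype peaks and genes at segment values of at least 1 or at most -1. Cdk3-ps was not among the measured distal genes. Means were compared with two-sided permutation tests, drawing 100000 resamples or, for any group smaller than 10, enumerating exactly, and p-values were adjusted by Benjamini-Hochberg. Differences per gene between histologies were fitted with limma 3.58.1 in R 4.3.3. They and the step between genotypes use values on which the stretch was selected, so their differences are given with no p-value. The correlations use these values too, and their p-values concern only relations between tumours within a genotype. All procedures were tested on simulated data. Alternatives covered log2 ratios, centring, labels, histology, thresholds, a later start and library series. Further software was pandas 2.3.3, SciPy 1.17.1, NumPy 2.4.6 and matplotlib 3.10.9 under Python 3.11.15.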

Additional observations from a re-analysis of the deposited data

Results flagged for a closer look

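In 2 of the 3 histology groups of 4 to 10 tumours, the mean segment value of the distal genes in 1 tumour lay farther from the others than Dixon's 95% critical value allows. KP replicate 4 stood at 0.76 among 6 adenocarcinomas, and its gap to the next tumour was 0.673 of the range, against a critical value of 0.625. KP replicate 12 stood at 0.24 among 10 sarcomatoid tumours, with a gap of 0.488 against 0.466. Chance flags about 1 in 20 such groups if the values are normally distributed. Many of these means lie at or near 0 and they use values on which the stretch was selected, so that rate may not hold here.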

How the results depend on the processing

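No paired analysis was made, because replicate numbers follow the order of the records and the labels do not tie samples to animals. Some titles share a number, also between spleens and tumours, but the labels do not say what the number means. On log2 ratios, Brca1 minus its flank passed the threshold where segment values had not: KB1(L1363P)P minus KB1P 0.053, KB1P minus KP -0.073, KB2P minus KP 0.052 and KB1P minus KB2P -0.125, while KB1(L1363P)P minus KB2P turned to -0.072. The cause was not tested. Without KB1PM titles and the conflicting label, 12 of 20 KB1P tumours had a gained distal gene and 5 had a gain that reached the flank. Among adenocarcinomas only, 0 KB1(L1363P)P tumours were gained. In library series 5289 only, 0 KP, 1 KB1(L1363P)P and 5 KB1P tumours were gained, with fewer tumours in each group. With gain from a segment value of 0.2, 5 KP and 5 KB1(L1363P)P tumours were gained, and the gain reached the flank in 2 of each. In KB1P it reached the flank in 13 tumours at that level, against 10 in the main setting. With 0.1, 5 KP and 7 KB1(L1363P)P tumours were gained, and the percent of distal genes gained in KP was 18.8. The removals of KP replicate 4, of KB2P replicate 12 and of KB1P replicates 10 and 31 were chosen after the data were seen. Without KP replicate 4, the KP correlation with chromosome 11 before Brca1 was 0.84, against -0.24 in the main setting. Removing KB2P replicate 12 takes out no KP tumour, so the KP value stayed at -0.24. The other 161 planned and 108 added values kept their side of the threshold, or moved by less than 1 SD or 1.5 times, and most kept their direction. Signs turned without a call for Brca1 minus its flank in KB1(L1363P)P minus KP, at -0.02 on log2 ratios, and for the mean level of KB1(L1363P)P, at -0.08 among adenocarcinomas only. They also turned for the step, where KB1P minus KP was -0.13 and KB2P minus KP -0.12 among adenocarcinomas only, and KB1(L1363P)P minus KP was 0.01 in series 5289 only. Tumours with a gained gene were not counted on log2 ratios, whose noise passes the call level at single genes. Leaving out each tumour in turn, 3 correlations crossed the threshold: KP without replicate 4, KP with altered share without replicate 7 at 0.70 (adjusted p = 0.0402), and KB1P without replicate 29 at 0.49 (adjusted p = 0.0495).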
